A study of Mus musculus with 8 samples.

Results

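Isorhamnetin and Torin1 were compared directly in J774.1, a line derived from BALB/c mice that resembles macrophages. The comparison took 4 of the 8 arrays of the series: 2 arrays of cells given isorhamnetin at 10 µM and 2 of cells given Torin1 at 1 µM, chosen by their treatment labels. Both treatments lasted 6 h, and the doses differ. The other 4 arrays were 2 of untreated or control cells, for which no dose, time or vehicle is given in the sources used here, and 2 of cells given tamarixetin at 10 µM for 6 h. All 8 arrays were labelled with Cy3 alone, and the series describes its repeats as biological without saying whether cultures were separate. A level is the log2 signal of a gene minus the 75th percentile of its array, so 0 is a gene at that percentile. A difference is the isorhamnetin mean minus the Torin1 mean on the log2 scale, given with its standard error (SE), and is positive where the level was higher with isorhamnetin. A gene was called at an adjusted p of under 0.05 in limma.

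Torin1 blocks the catalytic site of the kinase mTOR and so inhibits both mTOR complexes. When mTOR complex 1 (mTORC1) is active it phosphorylates the factors TFEB, TFE3 and MITF, which keeps them out of the nucleus. When it is inhibited they enter the nucleus and bind the sites of lysosomal and autophagy genes. Active mTORC1 also raises the translation of ATF4 and the processing of SREBP factors, and so the genes of amino acid and sterol synthesis, and loss of mTOR complex 2 releases FOXO factors from inhibition by AKT. Isorhamnetin is an O-methylated form of the plant flavonol quercetin, and tamarixetin is its isomer, with the methyl group on the neighbouring hydroxyl. Flavonols have been studied in macrophages for acting on NRF2, which KEAP1 marks for breakdown until electrophiles or oxidants modify KEAP1.

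The 4 arrays were of similar quality. Their 75th percentiles lay between 339.8 and 385 signal units, and 0 spots were saturated. With isorhamnetin 49.1% and 52.1% of probes were well above background, and with Torin1 43.8% and 46.3%. Over the genes tested, replicate arrays correlated at 0.997 for isorhamnetin and 0.994 for Torin1. The SD of their log2 differences was 0.26 and 0.37. All arrays lay on 1 slide, with isorhamnetin and control in slide row 1 and Torin1 and tamarixetin in slide row 2. Slide row and compound therefore cannot be told apart in this comparison. The same holds for Torin1 against control and for isorhamnetin against tamarixetin, which also lay in different slide columns. Isorhamnetin (columns 3 and 4) and control (columns 1 and 2) shared a row but no column. Slide column and compound therefore cannot be told apart in isorhamnetin against control.

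Macrophage markers were present in both groups, as the label says. Csf1r, the receptor of the growth factor that macrophages need, read 8.52 and 8.26 with isorhamnetin and 8.23 and 8.09 with Torin1. The integrin Itgam read 4.45 and 4.18 against 4.29 and 4.32, and lysozyme Lyz2 5.96 and 6.12 against 6.05 and 6.25. None of these 3 genes was called. Of 11 macrophage markers 10 were measured, and 6 of them differed, 1 higher and 5 lower with isorhamnetin. That is 60% called, beside 42.2% of all genes tested. Mpeg1, which encodes the pore-forming perforin-2, read 3.45 and 3.38 with isorhamnetin and 6.50 and 6.49 with Torin1, a difference of -3.08 ± 0.05 (SE, adjusted p = 1.2e-05). The surface marker Adgre1 differed by -1.36 ± 0.11 (adjusted p = 0.00063) and Cd68 by -0.50 ± 0.05 (adjusted p = 0.0013). Among markers of other cells, none of 4 epithelial genes, 1 of 5 fibroblast genes and 2 of 5 neutrophil genes passed the filter on dim probes. These fibroblast and neutrophil genes were well above background on all 4 arrays. Of the neutrophil genes 1 was lower with isorhamnetin than with Torin1, and the fibroblast gene was not called in that comparison. The B cell genes Cd79a, Cd79b and Pax5 lay below -2.9 on all 4 arrays, and none of the 3 was well above background on all of them. T cell genes were not all absent, since Cd3e lay between -0.36 and 0.27 on the 4 arrays and Lck between 0.32 and 1.02, while Cd3d was not well above background on all of them. Their part in the results was not tested.

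The compounds gave widely different transcript profiles. Of 21528 genes tested, 9095 were called, which is 42.2% of all genes tested. Of these, 5728 were higher with isorhamnetin (26.6% of genes tested) and 3367 were lower (15.6%). The share of calls that were higher was 63.0%, and it was 77.2% when arrays were scaled to their medians. That scaling moved the median difference of all genes from 0.09 to 0.22. Without the filter on dim probes the direction turned, with 25.2% of calls higher and a median difference of -0.28. At an unadjusted p of under 0.05, 10887 genes passed. In all 9095 called genes the 2 isorhamnetin arrays lay wholly above or wholly below the 2 Torin1 arrays, as they also did in 73.3% of all genes tested.

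Most called differences were under 2-fold, and the larger ones were more often on the Torin1 side. A difference of at least 2-fold was seen in 1301 called genes, 546 higher and 755 lower with isorhamnetin. At 4-fold the counts were 64 and 176, at 8-fold 17 and 85, and at 16-fold 3 and 32. These counts include genes that were not well above background in 1 of the groups. The lowest level well above background was lower on the isorhamnetin arrays (-4.16 and -4.62) than on the Torin1 arrays (-3.29 and -3.66). The sides are therefore not on an equal footing for dim genes, and its part in these counts was not tested. In the same fit, 117 genes were called between isorhamnetin and control (0.543% of genes tested) and 10642 between Torin1 and control (49.4%; 19.3% higher and 30.1% lower with Torin1). With isorhamnetin 0.418% of genes were higher and 0.125% lower than in control cells. These comparisons share arrays with each other, so their values and counts stand below beside those of isorhamnetin against Torin1, with no test between comparisons. Adjusted p also depends on how many genes pass in a comparison. A change of a given size was therefore called more readily for Torin1 against control than for isorhamnetin against control. Counts of calls from different comparisons are not on an equal footing.

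**Figure D1:**
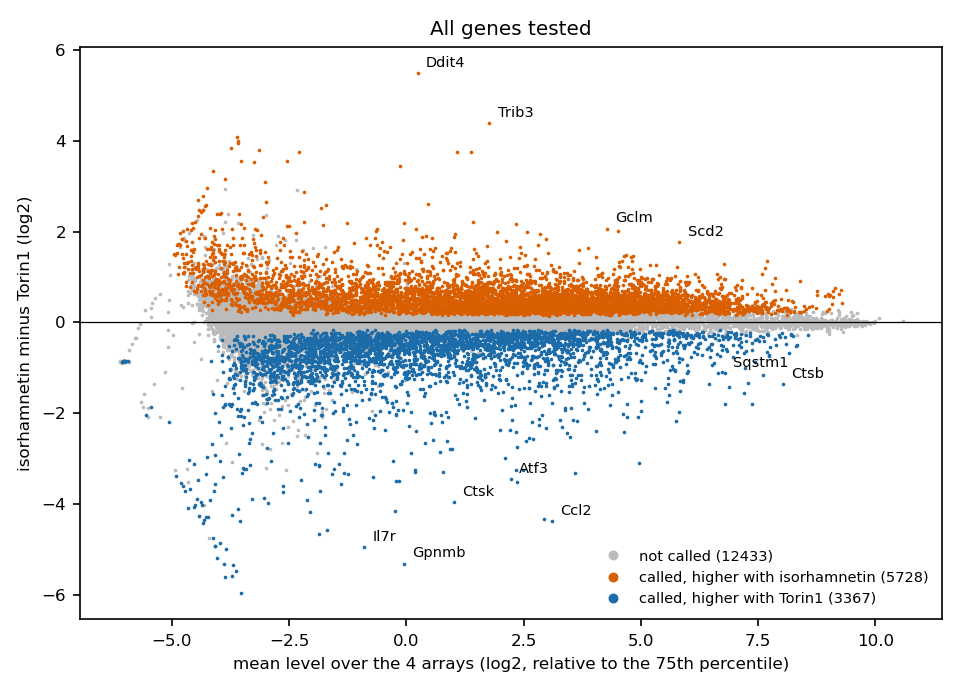
Each point is 1 of the 21528 genes tested. The x axis is the mean level over the 2 isorhamnetin and 2 Torin1 arrays (log2), and the y axis is isorhamnetin minus Torin1 (log2). Orange points were called and higher with isorhamnetin (5728), blue points were called and higher with Torin1 (3367), and grey points were not called. Ddit4 lies highest among the called genes at 5.48, and Gpnmb is among the lowest at -5.30.

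The gene furthest on the isorhamnetin side was Ddit4, which encodes REDD1, a stress-induced inhibitor of mTORC1. It read 2.92 and 3.04 with isorhamnetin, -2.66 and -2.36 with Torin1 and 2.96 and 2.84 on the control arrays. The isorhamnetin arrays lay among the control arrays, and the Torin1 arrays lay far below both. The difference was 5.48 ± 0.11 (adjusted p = 1.8e-05), a 44.8-fold higher level with isorhamnetin. Gadd45g, a growth arrest and DNA damage gene, was 10.8-fold higher with isorhamnetin than with Torin1. Dusp14, a phosphatase of MAP kinases, was 6.08-fold higher, Pdcd1, the checkpoint receptor PD-1, 6.04-fold, and Tmem37 5.74-fold.

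Some transcripts were measured with isorhamnetin and were not well above background on either Torin1 array, so that only a lower bound can be given. The inducible HSP70 gene Hspa1b was at least 8.33-fold higher with isorhamnetin (adjusted p = 5.5e-05), at -0.40 and -0.43 against -4.05 and -4.28. Arc, an activity-regulated immediate early gene, was at least 6.61-fold higher, and Sucnr1, the succinate receptor, at least 4.66-fold. The water and glycerol channel Aqp9 was at least 3.97-fold higher and the glycerol-3-phosphate acyltransferase gene Gpat3 at least 3.88-fold. Bounds of this kind, of any size, applied to 235 genes on the isorhamnetin side and 75 on the Torin1 side, of 21528 genes tested. The lowest level well above background was -4.16 and -4.62 on the isorhamnetin arrays and -3.29 and -3.66 on the Torin1 arrays. A dim gene was thus scored as present more easily with isorhamnetin, so the counts of the sides cannot be compared.

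On the Torin1 side the largest difference among named genes well above background on all 4 arrays was in Gpnmb, a glycoprotein of lysosomes and melanosomes that TFE factors induce. It read -2.70 and -2.72 with isorhamnetin, 2.53 and 2.66 with Torin1 and -3.28 and -3.20 in control cells. Both compounds lay above control, isorhamnetin by 0.53 (adjusted p = 0.05) and Torin1 by 5.84 (adjusted p = 5.5e-06). Between the compounds the difference was -5.30 ± 0.07 (adjusted p = 1.2e-05), a 39.4-fold higher level with Torin1. Cd83, a surface molecule of activated antigen-presenting cells, was 20.0-fold higher with Torin1 (difference -4.32 ± 0.08). Hyal1, a lysosomal hyaluronidase, was 17.9-fold higher and Tnfrsf1b, the second TNF receptor, 9.94-fold, while Ccrl2, a chemerin-binding receptor, differed by -3.91 ± 0.20. Gpr176, an orphan receptor, was at least 10.9-fold higher with Torin1, the nuclear receptor gene Rora at least 10.8-fold, and Cxcr4, the receptor of CXCL12, at least 10.7-fold. None of these last 3 was well above background on either isorhamnetin array.

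**Figure D2:**
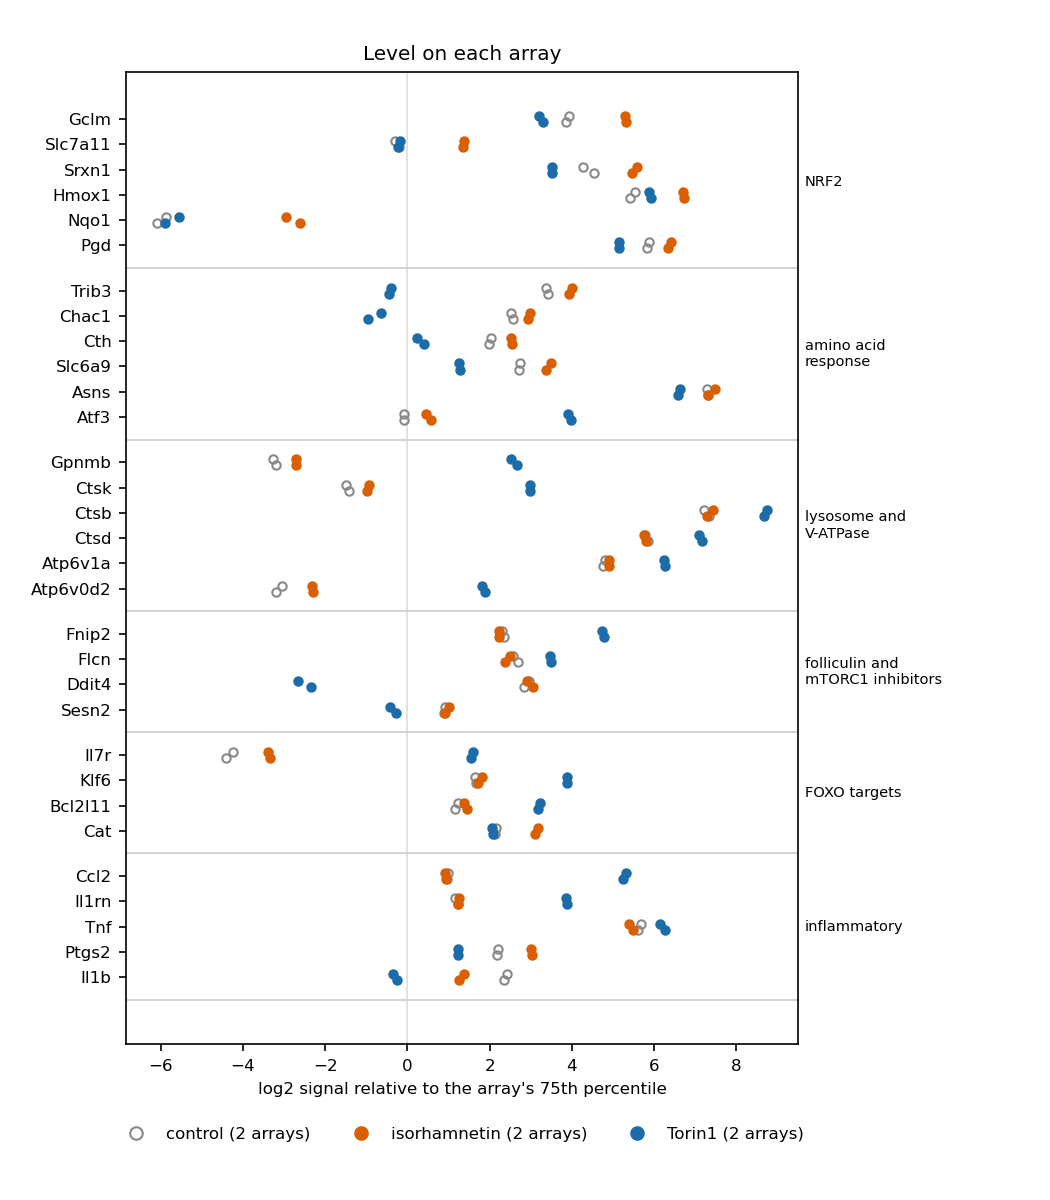
Level of 31 genes on each control, isorhamnetin and Torin1 array (x axis, log2 level), grouped by gene list. Each group has 2 points, 1 per array, so replicate spread is the distance between points of a colour. Ddit4 shows isorhamnetin among control and Torin1 far below at -2.66 and -2.36, whereas for Slc7a11 the Torin1 points (-0.19 and -0.24) lie among control.

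Of 57 lysosomal genes measured, 36 were lower with isorhamnetin than with Torin1, 2 were higher and 19 were not called (24 lower with median scaling), with a median difference of -0.39 beside 0.09 over all genes. Against control, isorhamnetin raised 3 of the 57 and lowered 0, while Torin1 raised 34 and lowered 3. Among proteases 10 of 12 were lower and 1 higher. The aspartic protease Ctsd read 5.76 and 5.79 with isorhamnetin, 7.10 and 7.17 with Torin1 and 5.78 and 5.84 in control cells (difference -1.36 ± 0.06, adjusted p = 0.00013). Ctsb, a cysteine protease, differed by -1.36 ± 0.08, and legumain, encoded by Lgmn, by -1.41 ± 0.07. For these 3 genes isorhamnetin lay within 0.1 of control and Torin1 alone stood apart. Ctsc, which activates granule proteases, went the other way at 0.48 ± 0.06 (adjusted p = 0.0017).

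Cathepsin K, encoded by Ctsk and typical of osteoclasts, was the protease with the largest difference. It read -0.93 and -0.99 with isorhamnetin, 2.99 and 2.98 with Torin1 and -1.50 and -1.42 in control cells. Isorhamnetin lay 0.50 above control (adjusted p = 0.037) and Torin1 4.44 above it (adjusted p = 5.5e-06), and the difference between the compounds was -3.95 ± 0.06 (adjusted p = 1.2e-05). Of 10 measured osteoclast-type genes 3 were lower and 2 higher with isorhamnetin (50% called, beside 42.2% of all genes). The tartrate-resistant phosphatase gene Acp5 differed by -1.55 ± 0.06, and Tnfrsf11a, the receptor RANK, by 1.22 ± 0.08. The sign of the median of these 10 genes, -0.07, turned with median scaling and without isorhamnetin replicate 2.

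Among glycosidases and sulfatases 11 of 20 were lower with isorhamnetin and 0 were higher. Naglu, which removes N-acetylglucosamine from heparan sulfate, read 4.31 and 4.24 against 5.55 and 5.51 (difference -1.26 ± 0.05). Hexa, the alpha subunit of hexosaminidase, differed by -0.91 ± 0.08. Membrane proteins gave 12 of 17 lower and 0 higher. Of these the chloride transporter Clcn7 differed by -1.28 ± 0.05, the cholesterol exporter Npc1 by -0.89 ± 0.06 and the calcium channel Mcoln1 by -0.78 ± 0.06, each at an adjusted p of 0.00057 or lower. Lipid hydrolases and activators were more mixed, with 3 of 8 lower and 1 higher. Prosaposin, from Psap, differed by -0.87 ± 0.07. The acid lipase gene Lipa stood apart from this pattern, since it rose with isorhamnetin by 0.83 over control (adjusted p = 0.015) and with Torin1 by 0.76 (adjusted p = 0.00037), and the compounds differed by 0.07 ± 0.06 (adjusted p = 0.37).

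The proton pump that acidifies lysosomes, the V-ATPase, showed 13 of 19 subunit genes lower and 2 higher with isorhamnetin (median -0.51). In the cytosolic V1 sector 6 of 8 were lower. The catalytic subunit gene Atp6v1a read 4.89 and 4.90 with isorhamnetin, 6.23 and 6.27 with Torin1 and 4.80 and 4.75 in control cells, a difference of -1.35 ± 0.05 (adjusted p = 7.4e-05). In the membrane V0 sector and among accessory subunits 7 of 11 were lower and 2 higher. Atp6v0d2, an isoform of macrophages and osteoclasts, was 17.8-fold higher with Torin1 (difference -4.15 ± 0.14), and Tcirg1 differed by -1.29 ± 0.05. Atp6v0e2 was higher with isorhamnetin, at 0.39 ± 0.06 (adjusted p = 0.0037). No V-ATPase gene was called between isorhamnetin and control in limma, where the 19 had a median difference of -0.06. Only 0.543% of all genes were called there, so that count does not set this list apart.

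Promoters of lysosomal genes often carry the palindrome TCACGTGA, the core of the site that TFE factors bind, so the RefSeq promoter windows (build GRCm38.p6, 250 bases before to 50 after the start site) were searched for it on both strands. It was found in 7 of 47 lysosomal genes and 3 of 13 V-ATPase genes with a promoter in the table, against 218 of 10346 tested genes (2.11%) and 0.974% of all 32851 windows. It was also in 2 of 13 transfer RNA synthetase genes and 2 of 19 translation factor genes. It was found in 0 of 30 genes of the mTORC1 and MiT/TFE list, which says only that these letters are not in those windows. No motif searched here contains another. The following stretches of 60 bases come from 5 genes that were lower with isorhamnetin, on the strand of the gene, with the motif in capitals. They are Ctsd (chr7:142387893-142387952, minus strand), Atp6v1a (chr16:44139358-44139417, minus), Mcoln1 (chr8:3500447-3500506, plus), Ctsa (chr2:164833713-164833772, plus) and Pip4p1 (chr14:50930871-50930930, minus).
Ctsd: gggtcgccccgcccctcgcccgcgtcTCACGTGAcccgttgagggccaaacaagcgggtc
Atp6v1a: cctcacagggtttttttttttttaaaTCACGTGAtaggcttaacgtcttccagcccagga
Mcoln1: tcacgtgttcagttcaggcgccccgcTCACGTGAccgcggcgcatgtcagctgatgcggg
Ctsa: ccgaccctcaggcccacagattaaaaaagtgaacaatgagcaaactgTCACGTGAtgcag
Pip4p1: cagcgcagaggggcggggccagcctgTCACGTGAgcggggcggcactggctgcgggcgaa
The motif starts from 13 (Ctsa) to 132 (Atp6v1a) bases upstream of the start site. The protective protein gene Ctsa differed by -0.52 ± 0.06 (adjusted p = 0.002) and Pip4p1, a lysosomal phosphoinositide phosphatase, by -0.49 ± 0.06 (adjusted p = 0.0018).

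Autophagy genes gave 16 of 35 lower and 4 higher with isorhamnetin, with a median of -0.33. With median scaling 10 were lower (median -0.20), and without either isorhamnetin array 2 were higher. Receptors that carry cargo to autophagosomes were all called, 6 of 8 lower and 2 higher. Sqstm1, the receptor p62 and itself an NRF2 target, read 6.17 and 6.28 with isorhamnetin, 7.31 and 7.39 with Torin1 and 5.44 and 5.49 in control cells. Both compounds raised it over control, isorhamnetin by 0.76 (adjusted p = 0.02) and Torin1 by 1.88 (adjusted p = 6.1e-05), and they differed by -1.12 ± 0.07. Nbr1, a related receptor, differed by -0.97 ± 0.07. Bnip3, a mitophagy receptor induced by hypoxia, was higher with isorhamnetin, at 5.48 and 5.30 against 4.21 and 4.23 (difference 1.17 ± 0.09, adjusted p = 0.00044).

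Genes of initiation and nucleation gave 6 of 13 lower and 0 higher (46.2% called), and those of the conjugation machinery 4 of 14 lower and 2 higher (42.9%). Both shares called in either direction were near the 42.2% over all genes. By direction, 46.2% of the first set and 28.6% of the second were lower, beside 15.6% of all genes. None of the first set and 14.3% of the second were higher, beside 26.6%. Map1lc3b, which encodes LC3B, differed by -0.56 ± 0.06 and Atg7, its activating enzyme, by -0.70 ± 0.08. Atg14, a subunit of the complex that starts autophagosome membranes, differed by -1.10 ± 0.05. The initiating kinase gene Ulk1 differed by -0.57 ± 0.09 (adjusted p = 0.0044), and it was not called with median scaling (adjusted p = 0.053).

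The transcripts of the TFE factors themselves were close between the compounds. Tfeb read -0.53 and -0.75 with isorhamnetin and -0.77 and -0.70 with Torin1 (difference 0.09 ± 0.12, adjusted p = 0.58). Tfe3 differed by 0.18 ± 0.07 (adjusted p = 0.076). Mitf was called at -0.25 ± 0.07 (adjusted p = 0.038), a call that was lost under several alternatives. The arrays measure transcripts and not where these proteins are in the cell.

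In the folliculin and Rag branch, which sets mTORC1 activity towards TFE factors, 5 of 11 genes were lower with isorhamnetin, 0 were higher and 6 were not called. That is 45.5% called, beside 42.2% of all genes, and 45.5% lower, beside 15.6%. Fnip2 read 2.23 and 2.22 with isorhamnetin, 4.72 and 4.77 with Torin1 and 2.29 and 2.34 in control cells (difference -2.52 ± 0.05, adjusted p = 1.7e-05). Its partners Fnip1 and Flcn differed by -1.15 ± 0.06 and -1.04 ± 0.07, and the GTPase gene Rragc by -0.75 ± 0.07. Among mTOR complex subunits and inhibitors 5 of 17 were higher and 4 lower (29.4% and 23.5%, beside 26.6% and 15.6% of all genes). The stress-induced inhibitors Sesn2 and Sesn1 were higher by 1.32 ± 0.07 and 1.13 ± 0.06, beside Ddit4 above, and Castor2, a relative of an arginine sensor, by 1.05 ± 0.08. The inhibitor gene Tsc1 was lower at -0.75 ± 0.06, the complex subunit gene Rptor at -0.58 ± 0.07 and the arginine sensor gene Castor1 at -1.16 ± 0.23, a call that was lost under some alternatives. The kinase gene Mtor itself was not called (difference -0.07 ± 0.10, adjusted p = 0.64). Across the list 31.25% were lower and 15.6% higher, beside 15.6% and 26.6% of all genes. The whole list of 32 gave 10 lower and 5 higher (46.9% called, near all genes), 6 were lower without Torin1 replicate 1, and its median of -0.02 turned sign with median scaling and without Torin1 replicate 2.

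FOXO factors are retained in the cytoplasm by AKT, and genes listed as their targets gave 10 of 20 lower and 4 higher with isorhamnetin. With the factors the list gave 11 of 22 lower and 4 higher (median -0.47). Il7r, the interleukin-7 receptor, read -3.40 and -3.35 with isorhamnetin, 1.60 and 1.54 with Torin1 and -4.25 and -4.41 in control cells, where it was not well above background. The difference was -4.94 ± 0.07 (adjusted p = 1.2e-05), a 30.7-fold higher level with Torin1. Klf6 and Klf2, zinc finger factors, differed by -2.12 ± 0.05 and -1.24 ± 0.06. Bcl2l11, which encodes the death-promoting protein BIM, read 1.37 and 1.44 against 3.24 and 3.19 (difference -1.81 ± 0.07, adjusted p = 7.4e-05), and Bbc3, which encodes PUMA, differed by -0.75 ± 0.05. Sod2, the mitochondrial superoxide dismutase, differed by -0.98 ± 0.09 and Ccng2 by -0.95 ± 0.11. Among the targets in this list, catalase, from Cat, was the largest exception. It read 3.17 and 3.10 with isorhamnetin, 2.06 and 2.07 with Torin1 and 2.16 and 2.12 in control cells, so that isorhamnetin stood apart here (difference 1.07 ± 0.08, adjusted p = 0.0005).

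The FOXO core GTAAACA was found in 4 of 20 listed FOXO genes with a promoter, against 3.14% of tested genes and 3.65% of all windows, and also in 3 of 14 p53 targets and 2 of 11 apoptosis genes. The stretches of both death genes are shown because both were lower with isorhamnetin: Bcl2l11 (chr2:128125788-128125847, plus strand) and Bbc3 (chr7:16310068-16310127, plus), with the motif or its reverse complement in capitals.
Bcl2l11: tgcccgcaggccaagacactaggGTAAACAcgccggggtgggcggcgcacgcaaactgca
Bbc3: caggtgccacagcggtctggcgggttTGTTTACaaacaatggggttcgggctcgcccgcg
In the wider list of 12 apoptosis genes 5 were lower and 4 higher with isorhamnetin. That is 41.7% lower and 33.3% higher, beside 15.6% and 26.6% of all genes. The survival genes Mcl1 and Bcl2l1 were lower, by -1.11 ± 0.08 and -0.65 ± 0.06, along with the death genes above, and Bmf, another death-promoting gene, was higher at 1.77 ± 0.08. The median of that list, 0.03, turned sign with quantile normalization.

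NRF2 genes were the list with most calls between isorhamnetin and control. Of 42 measured, 27 were higher and 5 lower with isorhamnetin than with Torin1 (median 0.54), and 2 were lower with median scaling, 8 without the filter on dim probes and 3 without isorhamnetin replicate 2. Against control, isorhamnetin raised 13 and lowered 0, and Torin1 raised 8 and lowered 20. Gclm, the modifier subunit of the rate-limiting enzyme of glutathione synthesis, read 5.29 and 5.32 with isorhamnetin, 3.21 and 3.29 with Torin1 and 3.92 and 3.86 in control cells. The compounds lay on opposite sides of control, isorhamnetin 1.41 above (adjusted p = 0.0041) and Torin1 0.65 below, as a difference of -0.65 (adjusted p = 0.0006). Between them the difference was 2.06 ± 0.06 (adjusted p = 3.6e-05).

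Slc7a11, the cystine carrier that feeds glutathione synthesis, had another pattern. It read 1.38 and 1.34 with isorhamnetin, -0.19 and -0.24 with Torin1 and -0.29 and -0.20 in control cells. The Torin1 arrays lay among the control arrays, and the difference of 1.58 ± 0.06 (adjusted p = 6.9e-05) came with a rise of 1.61 over control for isorhamnetin and a difference of 0.03 for Torin1 (adjusted p = 0.67). Gclc, the catalytic subunit, differed by 0.66 ± 0.06, with isorhamnetin 0.72 above control (adjusted p = 0.019).

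Reductases gave 9 of 11 higher and 0 lower with isorhamnetin. Srxn1, which repairs oxidized peroxiredoxins, read 5.58 and 5.47 with isorhamnetin, 3.51 and 3.51 with Torin1 and 4.28 and 4.55 in control cells, again on opposite sides of control (difference 2.02 ± 0.10, adjusted p = 0.00014). The thioredoxin reductase gene Txnrd1 differed by 0.95 ± 0.06, the aldo-keto reductase gene Akr1b8 by 1.21 ± 0.06 and the glutathione reductase gene Gsr by 1.18 ± 0.06. Nqo1, the quinone reductase often used as an NRF2 readout, was near the detection limit. It read -2.95 and -2.61 with isorhamnetin and was not well above background with Torin1 or in control cells, which gives a level at least 1.62-fold higher with isorhamnetin than with Torin1 (adjusted p = 0.0002).

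All 6 NADPH-producing enzymes were higher with isorhamnetin, with a median difference of 1.02. G6pdx, which opens the pentose phosphate pathway, read 6.01 and 5.89 with isorhamnetin, 4.70 and 4.66 with Torin1 and 5.50 and 5.55 in control cells (difference 1.27 ± 0.06, adjusted p = 0.00013). Here most of the distance lay on the Torin1 side, which fell by 0.85 from control, while isorhamnetin was 0.42 above it without passing the threshold (adjusted p = 0.067). The next enzyme, from Pgd, differed by 1.22 ± 0.05 and malic enzyme, from Me1, by 1.04 ± 0.07.

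Haem and iron genes gave 2 of 7 higher and 1 lower, shares (28.6% and 14.3%) near those of all genes. Haem oxygenase, from Hmox1, read 6.70 and 6.72 with isorhamnetin, 5.87 and 5.92 with Torin1 and 5.54 and 5.40 in control cells, so both compounds raised it and isorhamnetin more (difference 0.81 ± 0.11, adjusted p = 0.0027). The biliverdin reductases split: Blvrb differed by 1.05 ± 0.06 and Blvra by -0.61 ± 0.08. All 3 measured efflux pumps were higher with isorhamnetin, among them Abcc1 at 0.61 ± 0.05. The factors themselves gave 1 of 6 higher and 3 lower. Keap1 was higher with isorhamnetin at 0.60 ± 0.05, whereas the small MAF gene Maff was lower at -1.21 ± 0.07 (adjusted p = 0.00021). Nfe2l2, which encodes NRF2, differed by -0.36 ± 0.07 (adjusted p = 0.0084), and it was not called with median scaling (adjusted p = 0.19).

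The NRF2 core TGACNNNGC was found in 13 of 33 NRF2 genes with a promoter, against 16.4% of tested genes and 12.4% of all windows, and also in 6 of 10 genes of the MYC network. The stretches below hold it in 4 members, with the match or its reverse complement in capitals: Gclm (chr3:122245397-122245456, plus strand), G6pdx (chrX:74428904-74428963, minus), Txnrd1 (chr10:82859088-82859147, plus) and Maff (chr15:79346483-79346542, plus). The first 3 were higher with isorhamnetin and Maff was lower.
Gclm: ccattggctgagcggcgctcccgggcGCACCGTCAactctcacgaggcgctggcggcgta
G6pdx: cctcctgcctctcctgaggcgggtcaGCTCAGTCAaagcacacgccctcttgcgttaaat
Txnrd1: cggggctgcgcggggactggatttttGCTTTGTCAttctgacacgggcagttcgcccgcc
Maff: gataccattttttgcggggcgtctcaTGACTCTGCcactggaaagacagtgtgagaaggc

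**Figure D3:**
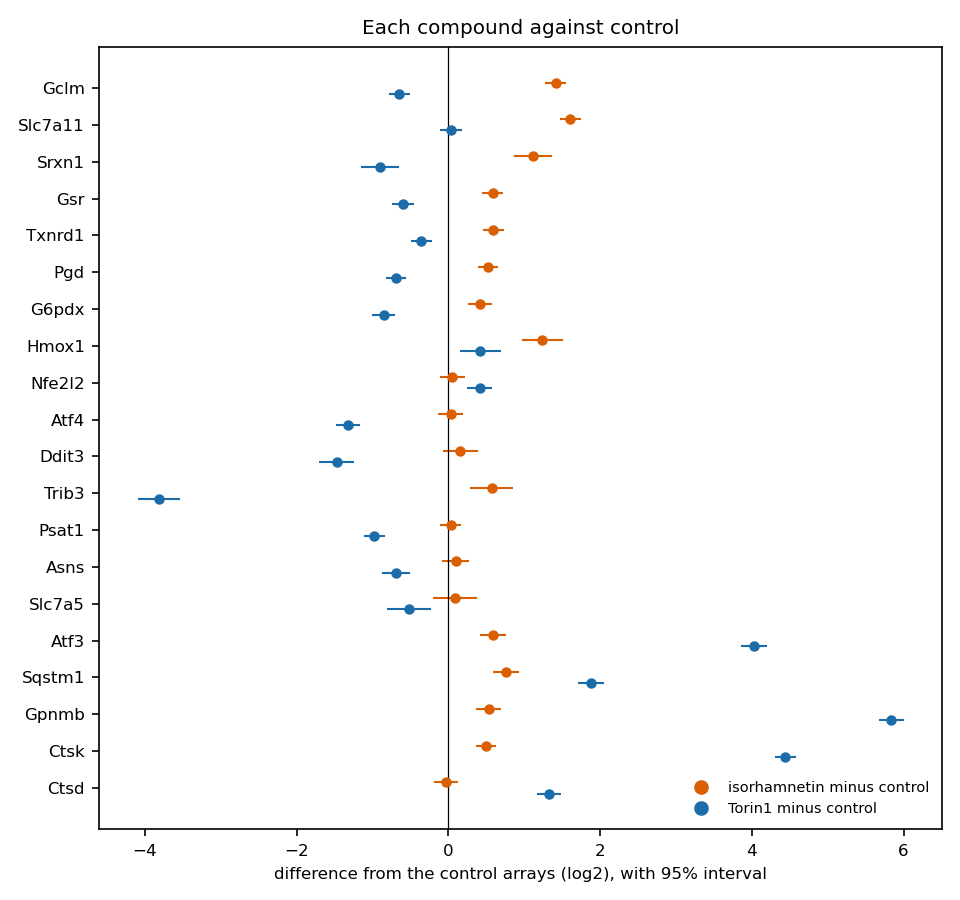
Difference of each compound from the 2 control arrays (x axis, log2) for 20 genes of the NRF2, amino acid and lysosomal lists, with the 95% interval of the moderated fit. Both differences of a gene share the control arrays. For Gclm the points lie on opposite sides of 0 (1.41 and -0.65), for Slc7a11 the Torin1 interval includes 0, and for Atf4 and Ctsd the isorhamnetin interval does.

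Genes of the amino acid response were mostly higher with isorhamnetin, with a median of 0.11 for isorhamnetin against control and -0.66 for Torin1 against control. Of 40 measured, 32 were higher and 3 lower (median 0.84). Isorhamnetin raised 3 over control and lowered 0, while Torin1 raised 3 and lowered 31. The factor gene Atf4 read 8.30 and 8.42 with isorhamnetin, 7.05 and 6.98 with Torin1 and 8.31 and 8.36 in control cells (difference 1.35 ± 0.06, adjusted p = 0.00013). Its partners Ddit3, which encodes CHOP, and Atf5 differed by 1.63 ± 0.09 and 1.45 ± 0.06. Trib3, a pseudokinase that feeds back on ATF4, read 3.99 and 3.92 with isorhamnetin, -0.39 and -0.45 with Torin1 and 3.37 and 3.41 in control cells, and was 20.9-fold higher with isorhamnetin (difference 4.38 ± 0.11, adjusted p = 3.1e-05).

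Among amino acid and one-carbon enzymes 14 of 16 were higher with isorhamnetin and 0 lower. Chac1, which degrades glutathione, read 2.98 and 2.94 against -0.64 and -0.95 (difference 3.75 ± 0.12, adjusted p = 5.2e-05). Cth, which makes cysteine from cystathionine, differed by 2.22 ± 0.08, the serine enzyme gene Psat1 by 1.00 ± 0.06 and the mitochondrial folate enzyme gene Mthfd2 by 1.10 ± 0.06. Asparagine synthetase, from Asns, differed by 0.79 ± 0.07. Transporters gave 6 of 9 higher and 0 lower. The glycine transporter gene Slc6a9 was 4.50-fold higher with isorhamnetin, which also raised it over control by 0.70 (adjusted p = 0.02).

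Atf3 and Cebpb, factors of the same list, went against it. Atf3 read 0.44 and 0.56 with isorhamnetin, 3.92 and 3.97 with Torin1 and -0.09 and -0.09 in control cells. Both compounds raised it over control, by 0.59 (adjusted p = 0.043) and 4.03 (adjusted p = 1.1e-05), and the difference was -3.44 ± 0.07 (adjusted p = 1.7e-05). Cebpb differed by -0.95 ± 0.11.

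Enzymes that charge transfer RNAs, many of them ATF4 targets, were higher with isorhamnetin in 17 of 20 cases and lower in 1. The cysteine enzyme gene Cars read 5.53 and 5.45 with isorhamnetin and 4.10 and 4.17 with Torin1 (difference 1.36 ± 0.07, adjusted p = 0.00013). Aars and Yars differed by 1.02 ± 0.09 and 0.99 ± 0.07. None of the 20 was called between isorhamnetin and control in limma, beside 0.543% of all genes, so this does not set them apart.

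The composite site of ATF4 with C/EBP factors, TGATGNAA, was found in 10 of 33 genes of the amino acid response and 5 of 13 transfer RNA synthetase genes, against 3.10% of tested genes and 3.97% of all windows. The stretches below contrast members that moved in opposite directions: Chac1 (chr2:119351023-119351082, plus strand), Slc7a11 (chr3:50443646-50443705, minus) and Herpud1 (chr8:94386291-94386350, plus) were higher with isorhamnetin, and Atf3 (chr1:191183410-191183469, minus) was lower. Capitals mark each match or its reverse complement, of which the Slc7a11 stretch holds both.
Chac1: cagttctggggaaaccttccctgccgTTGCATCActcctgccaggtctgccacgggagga
Slc7a11: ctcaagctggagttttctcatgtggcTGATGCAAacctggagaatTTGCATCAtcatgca
Herpud1: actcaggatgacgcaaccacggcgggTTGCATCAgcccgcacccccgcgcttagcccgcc
Atf3: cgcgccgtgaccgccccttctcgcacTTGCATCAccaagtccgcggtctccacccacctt

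Sterol synthesis was the list with the highest share of calls in the isorhamnetin direction. Of 28 measured genes 26 were higher and 0 lower (median 0.81), among them all 10 of the mevalonate branch and all 10 of the sterol branch. Idi1, an isomerase of the mevalonate branch, read 4.48 and 4.48 with isorhamnetin, 2.90 and 2.86 with Torin1 and 4.55 and 4.61 in control cells (difference 1.60 ± 0.05, adjusted p = 5.5e-05). Hmgcs1, which acts earlier in that branch, differed by 0.83 ± 0.07. Against control by the same test, 0 of the 28 were called with isorhamnetin, beside 0.543% of all genes. Torin1 lowered 25 and raised 1. Fatty acid synthesis gave 12 of 17 higher and 0 lower. Its desaturase gene Scd2 read 6.74 and 6.67 with isorhamnetin, 4.98 and 4.88 with Torin1 and 6.84 and 6.87 in control cells (difference 1.77 ± 0.06), and fatty acid synthase, from Fasn, differed by 0.78 ± 0.06. The factor genes Srebf1 and Srebf2 had smaller differences, 0.42 ± 0.07 and 0.33 ± 0.08, and the call of Srebf2 (adjusted p = 0.025) was lost under several alternatives.

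Lipid storage and efflux genes were divided evenly, 6 of 16 higher and 6 lower (37.5% each, beside 26.6% and 15.6% of all genes). Their median of -0.01 turned sign with median scaling, with the mean of probes, and without isorhamnetin replicate 2 or Torin1 replicate 1. The fatty acid binding protein gene Fabp4 was 4.50-fold higher with Torin1 (difference -2.17 ± 0.08), the cholesterol exporter gene Abcg1 differed by -1.56 ± 0.08 and the lipid droplet gene Plin2 by -1.40 ± 0.06. Lipoprotein lipase, from Lpl, was higher with isorhamnetin at 1.27 ± 0.06.

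Cell cycle genes were mostly higher with isorhamnetin. Mitosis gave 22 of 25 higher and 0 lower (median 0.46), DNA replication 22 of 27 higher and 1 lower (0.42), and nucleotide synthesis 22 of 28 higher and 1 lower (0.41), with all 11 pyrimidine and deoxynucleotide genes higher. Cdc6, which loads the replicative helicase, read 3.03 and 2.91 with isorhamnetin, 1.91 and 1.81 with Torin1 and 2.97 and 3.06 in control cells (difference 1.11 ± 0.07, adjusted p = 0.00027). Thymidine kinase, from Tk1, differed by 1.47 ± 0.10, and the proliferation marker Mki67 by 0.53 ± 0.06. The licensing factor gene Cdt1 was the replication gene that was lower, at -0.60 ± 0.06. In limma's test 0 members of these 3 lists were called between isorhamnetin and control, beside 0.543% of all genes.

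Cyclins and inhibitors of the G1 phase gave 11 of 15 higher and 1 lower. The cyclin genes Ccnd3 and Ccnd1 differed by 1.33 ± 0.05 and 0.76 ± 0.06. Cdkn1a, the inhibitor p21 and a p53 target, was also higher with isorhamnetin, at 3.82 and 3.80 against 1.86 and 1.87 and 4.13 and 4.07 in control cells (difference 1.95 ± 0.06, adjusted p = 5.2e-05). Among 17 p53 targets 7 were higher and 3 lower (41.2% and 17.6%, beside 26.6% and 15.6% of all genes). The death receptor gene Fas was lower at -1.45 ± 0.07. Myc, a growth factor-induced transcription factor, was lower with isorhamnetin. It read 2.37 and 2.49 with isorhamnetin, 3.81 and 3.88 with Torin1 and 1.95 and 1.79 in control cells (difference -1.41 ± 0.08, adjusted p = 0.00019).

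Proteasome subunits gave 27 of 31 higher and 1 lower with isorhamnetin, with Psmd7 highest at 0.70 ± 0.05. These small differences depended on single arrays, with 16 higher without isorhamnetin replicate 1, 17 without Torin1 replicate 1 and 14 without Torin1 replicate 2. The unfolded protein response gave 17 of 21 higher and 1 lower (median 0.69). Its chaperone gene Hspa5 read 8.19 and 8.02 with isorhamnetin, 7.03 and 7.06 with Torin1 and 8.22 and 8.35 in control cells, a difference of 1.06 ± 0.08, and Herpud1, of endoplasmic reticulum degradation, differed by 1.64 ± 0.10. Cytosolic chaperones gave 12 of 13 higher and 0 lower, with Hsph1 at 0.77 ± 0.06 beside Hspa1b above, while chaperonins gave 4 of 10 higher and 0 lower. For chaperonins that is 40% called, near the 42.2% of all genes, and 40% higher, beside 26.6%. Of both chaperone classes together 16 of 23 were higher, and 10 without isorhamnetin replicate 1, Torin1 replicate 1 or Torin1 replicate 2.

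Ribosomal proteins did not follow the other growth genes. Of 78 measured, 0 were called in limma, and the 78 differences ran from -0.19 to 0.15 with a median of -0.03, whose sign turned with median scaling and without isorhamnetin replicate 2. Ribosome assembly genes gave 29 of 50 higher and 2 lower (median 0.28), among them Rrp1b at 0.68 ± 0.06. That count was 16 without either isorhamnetin array, 15 without Torin1 replicate 1 and 17 without Torin1 replicate 2, and quantile normalization gave 18 higher and 6 lower (median 0.11). Translation factors gave 9 of 24 higher and 2 lower, a share called of 45.8%, near that of all genes. By direction 37.5% were higher and 8.33% lower, beside 26.6% and 15.6% of all genes. Glycolysis and hypoxia genes gave 23 of 35 higher and 4 lower (median 0.40). The lactate exporter gene Slc16a3 differed by 1.02 ± 0.06 and the phosphofructokinase gene Pfkp by 1.09 ± 0.07, while Ndrg1, a hypoxia and stress gene, was lower at -1.89 ± 0.22. Oxidative phosphorylation gave 14 of 39 higher and 0 lower, with Ndufb10 highest at 0.48 ± 0.05. The share called was 35.9%, under the 42.2% of all genes, and the share higher was 35.9%, beside 26.6%. Quantile normalization gave 2 lower and a median of 0.05, beside a main median of 0.17. Only 6 were higher without isorhamnetin replicate 1 or Torin1 replicate 1, 7 without Torin1 replicate 2 and 9 with the replicate block or quantile normalization.

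Inflammatory genes gave 27 of 46 lower and 6 higher with isorhamnetin (median -0.63). The chemokines placed in this list gave 9 of 11 lower and 0 higher (median -1.51). Chemokine genes outside it did not all share that direction. Cxcl10, counted with the interferon-stimulated genes below, was higher with isorhamnetin, and so was Cxcl14, by 1.70 to 2.22 across the settings. Cytokines and mediators gave 8 of 14 lower and 4 higher, and NF-kB subunits, inhibitors and inflammasome genes 10 of 21 lower and 2 higher. The monocyte attractant gene Ccl2 read 0.90 and 0.93 with isorhamnetin, 5.30 and 5.25 with Torin1 and 0.98 and 0.96 in control cells, and was 20.6-fold higher with Torin1 (difference -4.36 ± 0.07, adjusted p = 1.2e-05). The isorhamnetin arrays lay within 0.1 of the control arrays. The neutrophil attractant gene Cxcl2 differed by -2.10 ± 0.06, Ccl4 by -1.79 ± 0.06 and Ccl3 by -1.34 ± 0.08. Il1rn, the interleukin-1 receptor antagonist, differed by -2.62 ± 0.05 and Tnf by -0.77 ± 0.09 (adjusted p = 0.0016). The subunit gene Relb and the inhibitor gene Nfkbia, both NF-kB targets, differed by -1.02 ± 0.07 and -0.59 ± 0.06.

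Within the inflammatory list, interleukin-1 beta and cyclooxygenase 2 had the largest differences in the other direction. Ptgs2 read 3.01 and 3.02 with isorhamnetin, 1.24 and 1.22 with Torin1 and 2.20 and 2.17 in control cells, with the compounds on opposite sides of control (difference 1.79 ± 0.07, adjusted p = 7e-05). Il1b read 1.38 and 1.25 with isorhamnetin, -0.34 and -0.25 with Torin1 and 2.42 and 2.34 in control cells, with both compounds below control and Torin1 further (difference 1.61 ± 0.08, adjusted p = 0.00014). Immediate early and MAP kinase feedback genes gave 13 of 27 lower and 5 higher, around a median of -0.05 that turned sign with median scaling. Jun differed by -1.04 ± 0.05 and the phosphatase gene Dusp4 by -1.87 ± 0.07. Egr1 was higher with isorhamnetin than with Torin1, at -0.45 and -0.45 against -1.36 and -1.56, and below control with both compounds (0.47 and 0.49 in control cells).

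Interferon-stimulated genes were called between the compounds about as often as genes in general. Of 31 measured 9 were higher and 3 lower, 38.7% called against 42.2% of all genes. By direction 29.0% were higher and 9.68% lower, beside 26.6% and 15.6%. The differences ran from -1.32 to 1.25. Against control, isorhamnetin had a median of -0.44 with 6 lower and 0 higher, and Torin1 a median of -0.65 with 25 lower and 1 higher. Rtp4 read 1.74 and 1.69 with isorhamnetin, 1.15 and 1.09 with Torin1 and 2.77 and 2.97 in control cells (difference 0.59 ± 0.10, adjusted p = 0.0068). Usp18, which removes ISG15 and restrains the receptor, was lower with isorhamnetin than with Torin1, at -0.30 and -0.12 against 0.89 and 0.85, with 1.12 and 1.31 in control cells (difference -1.08 ± 0.11, adjusted p = 0.001). The chemokine gene Cxcl10 stayed near control with isorhamnetin and differed by 1.25 ± 0.10.

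Of 26 Fc, lectin and Toll-like receptor genes 15 were lower and 3 higher with isorhamnetin (median -0.38), and 8 were lower with median scaling. The endosomal receptor gene Tlr13, a sensor of bacterial ribosomal RNA, read 2.22 and 2.23 with isorhamnetin, 3.96 and 4.02 with Torin1 and 1.74 and 1.75 in control cells (difference -1.76 ± 0.06, adjusted p = 6.9e-05). The inhibitory receptor gene Fcgr2b differed by -1.47 ± 0.07 and Tlr7 by -1.15 ± 0.06. Fcgr1, the high-affinity receptor, went the other way at 1.94 ± 0.13 (adjusted p = 0.00032). Among 11 MHC genes 4 were higher and 1 lower, and 2 were higher without Torin1 replicate 1 or with quantile normalization. In the main fit 45.5% of the MHC genes were called, near the 42.2% of all genes, with 36.4% higher and 9.1% lower. The class II gene H2-Eb1 was lower at -1.67 ± 0.07, and the peptide-loading gene H2-DMa was higher at 1.23 ± 0.09. Of 9 metal response genes 4 were higher and 3 lower (1 and 2 without Torin1 replicate 1). That is 44.4% and 33.3%, beside 26.6% and 15.6% of all genes. The metallothionein genes Mt1 and Mt2 were lower at -0.50 ± 0.09 and -0.73 ± 0.09. The aryl hydrocarbon receptor list gave 1 of 5 higher (Nqo1) and 2 lower, with Tiparp at -0.55 ± 0.06. These shares were 20% and 40%, beside the same 26.6% and 15.6%.

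**Figure D4:**
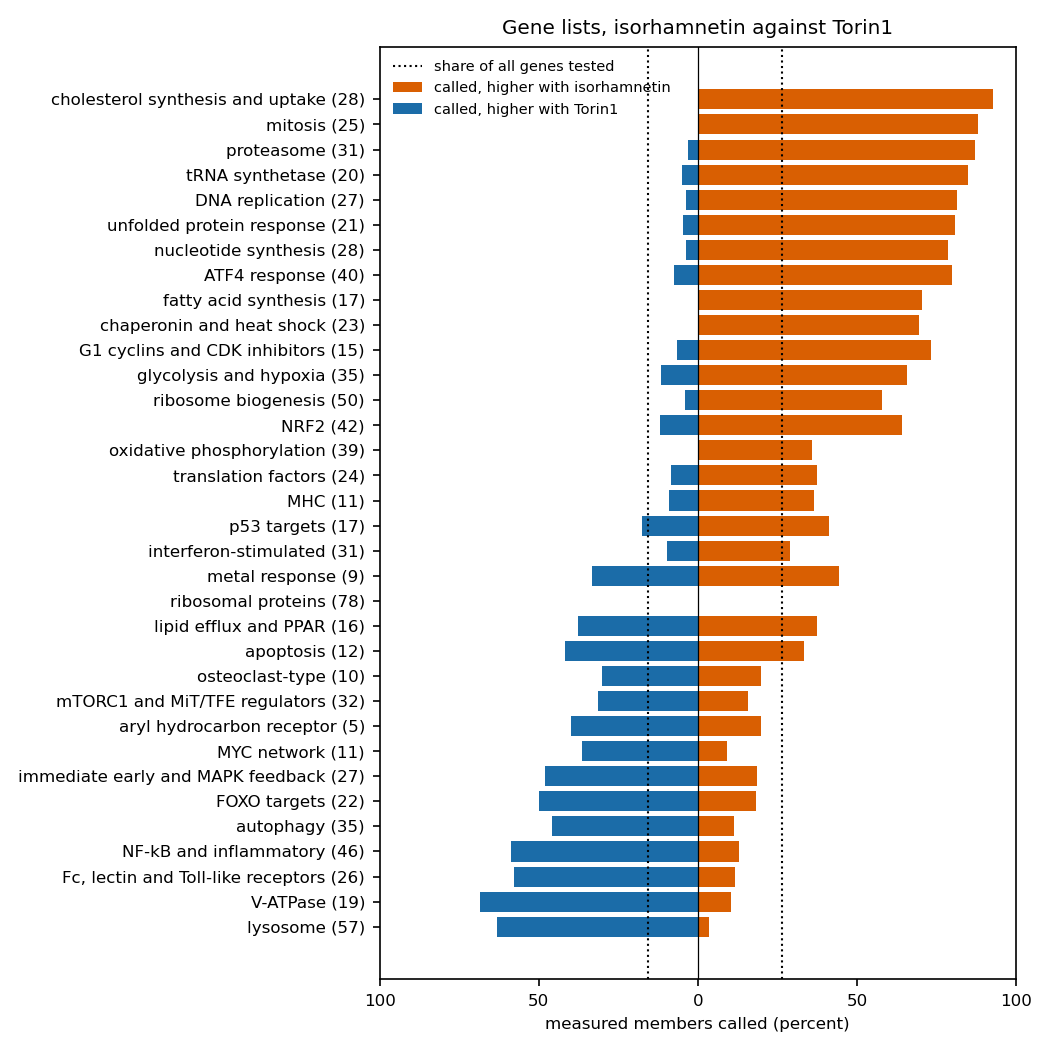
Share of the measured members of each of 34 gene lists that were called (x axis, percent), higher with isorhamnetin to the right and higher with Torin1 to the left. Numbers in brackets are measured members, and dotted lines mark the shares over all genes tested (26.6% and 15.6%). Sterol synthesis reaches 92.9% on the right, lysosome 63.2% and V-ATPase 68.4% on the left, and ribosomal proteins have no bar.

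Tamarixetin at the same dose and time was used to see where the isomer differs from isorhamnetin for these genes. The isomers lay in different slide rows and columns, so isomer and slide position cannot be told apart. In the same fit 178 genes were called between the isomers, 0.827% of genes tested. Of all genes, 0.585% were higher and 0.242% lower with isorhamnetin. Slc7a11 was 1.69 higher with isorhamnetin than with tamarixetin (adjusted p = 0.0021), Gclm 1.37 higher (adjusted p = 0.0026), Hmox1 1.31 higher (adjusted p = 0.014) and Srxn1 1.01 higher (adjusted p = 0.023). Of the 42 NRF2 genes 13 were higher with isorhamnetin than with tamarixetin and 0 lower. Several genes with large Torin1 levels also differed between the isomers, with Il7r 1.35 higher with isorhamnetin (adjusted p = 0.0057), Gpnmb 1.20 higher (adjusted p = 0.0057) and Ctsk 0.50 higher (adjusted p = 0.032). For Il7r and Gpnmb the mean tamarixetin level lay below the lowest level well above background on those arrays (-3.08 and -3.07). The sizes of both differences are therefore not measured, and for Il7r the isorhamnetin levels also lay below these values. Between the isomers 0 of 28 sterol genes and 0 of 31 proteasome genes were called in limma. With 0.827% of all genes called, such counts do not set these lists apart from other genes. For Ddit4 the isomers differed by 0.32 (adjusted p = 0.33) and for Ccl2 by 0.16 (adjusted p = 0.42).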

How the data were processed

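Agilent Feature Extraction 10.7.1.1 read the single channel per the file headers, and the deposited processed signal is a background-subtracted intensity. The authors' deposited log2 values equalled log2 signal minus the 75th percentile and a per-probe centre within 0.01 for 99.924% of values. The log2 scale here omits the centring. Outlier spots left out 323 of 56605 probes. A filter kept 27562 probes that, in 1 group or more, exceeded background on each array. The probe with the highest mean stood for a gene. RefSeq accessions (GRCm38.p6) named 12935 of 21528 genes, and the header's older build mm9 was not used. limma 3.58.1 in R 4.3.3 fitted all 8 arrays with 1 mean per group (4 residual degrees of freedom), with two-sided p-values adjusted by Benjamini-Hochberg over all genes. An exact test of 2 arrays against 2 cannot go below p = 0.333. The fit was tested on simulated data. P-values measure the spread between these samples, which may be technical, and 2 arrays a group limit precision.

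Members and lists were chosen with earlier results of these data known. Named genes were the 15 largest differences in each direction, up to 5 bounds in each direction, the 4 largest called members per list and direction, and a panel. Further genes were named after their values were seen, and 18 candidates among them were dropped after their direction or call proved to change with the processing, so stability is counted over the rule-named genes alone. A bound sets the brighter group's mean against the lowest signal well above background on each dim array, or the probe's own where higher. Lists share members, and unnamed probes were tested too. Same-numbered isorhamnetin and Torin1 arrays did not deviate together (r = 0.039). Alternatives covered background correction, scaling, filters, probe choice, the fit, the authors' values and each array left out. Results for some genes that the naming rule selects are not reported here.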

Additional observations from a re-analysis of the deposited data

How the results depend on the processing

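The count of 9095 called genes stayed within 1.5 times under every alternative but 1: without the filter on dim probes, 19940 of 45380 genes were called, 14924 of them lower with isorhamnetin (3367 with the filter). With median scaling 8642 were called, 1967 of them lower. Of the 9095 genes, 7503 remained called with median scaling, 7651 with quantile normalization, 7805 with normexp and 7477 without the filter. Leaving out 1 array gave from 6186 (without Torin1 replicate 1) to 9173 calls (without either tamarixetin array). The replicate number as a block gave 8027 calls, but the arrays share only a number. Replicate 1 lay in slide columns 1 and 3, and replicate 2 in columns 2 and 4. The authors' deposited values gave 9094. Of the 228 genes named by the rule, 190 gave the same direction and call throughout, 35 changed their call under at least 1 alternative and 3 turned sign. The genes named beyond the rule were partly chosen for their stability, so no share is read from them. All genes that turned sign were not called in the comparison itself. They were Lyz2 (0.017), Mtor (0.0617) and Cd79b (0.0091) with median scaling, and Tfe3 (-0.0234), Lipa (-0.12), Itgam (-0.15) and Cd79b (0.0415) with quantile normalization. They were also Cd79a with normexp (-0.0155) and Cd3e without the first 48 spot rows (-0.12). With 1 array left out, Irs2 ran from -0.0885 to 0.2881, Itgam from -0.13 to 0.1489, Tfeb from -0.0171 to 0.2063, Cd3e from -0.0687 to 0.4648, Cd79a from -0.3895 to 0.6421, Cd79b from -0.7854 to 0.5462 and Pax5 from -0.6506 to 0.1058. The causes were not tested. Slide and scan blocks were not run, as there was 1 of each. In 13 called genes neither group was above background, so their order has no meaning.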
